A study of Homo sapiens with 12 samples.

Results

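The genes described here encode the nonsense-mediated decay (NMD) machinery and the RNA exosome with its cofactors, and were taken by symbol from the gene tables as 37 of the 58288 genes listed. They comprise 9 NMD factors, 6 components of the exon junction complex, 9 subunits of the exosome core, 2 exosome nucleases, 6 nuclear exosome cofactors and 5 genes of 5′ to 3′ decay, decapping and deadenylation. The symbol MPP6 in the list was read as MPHOSPH6, the exosome cofactor of that name. It is also an older symbol of PALS2, whose median level was 6.11 RPKM in HPB-ALL and 10.7 RPKM in KOPTK1. All 37 genes passed the filter on low values.

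The RNA-Seq libraries came from 2 human T-cell acute lymphoblastic leukemia (T-ALL) lines, HPB-ALL and KOPTK1, with 6 libraries per line. In each line 3 libraries were from cells infected with pLKO.1 lentivirus carrying shRNA against SHQ1, and 3 from cells infected with shRNA against GFP as control. SHQ1 is an assembly factor of H/ACA snoRNPs, the particles that pseudouridylate snRNA. All cells had been kept for 48 h in 2 μg/mL puromycin before total RNA was depleted of rRNA.

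The count columns are headed by numbers alone, 7 to 12 in HPB-ALL and 1 to 6 in KOPTK1, and no label ties a number to an shRNA. SHQ1 shRNA was therefore not compared with control shRNA, and the comparison made is between the lines. Each line is 1 cell line with its own table, so line and table cannot be told apart, and the spread within a line includes both shRNAs.

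NMD degrades mRNAs whose translation stops early. The kinase SMG1 phosphorylates the helicase UPF1, and SMG5 and SMG6 then bring the mRNA to decay. Exon junction complexes, which splicing leaves on the mRNA, mark stop codons that lie too far upstream. Transcripts that keep an intron are degraded by this route in the cytoplasm or by the exosome in the nucleus, a barrel of EXOSC1 to EXOSC9 to which the nucleases EXOSC10 and DIS3 bind.

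The promoters of 5 members are shown to give the sequence at the start of genes that differed between the lines. They have the largest differences between the lines among the members past the threshold whose RefSeq start lies within 100 bases of the gene's start in the tables, a choice made after the values were seen. RefSeq (GRCh38.p14) gave a promoter for 32 of the 37 genes, from 250 bases before to 50 after the start, and 20 of the 32 met that limit. MAGOHB, CASC3 and SMG8 differed more than the 5 but are not shown. No promoter was given for CASC3 or SMG8, and the MAGOHB start lay 645 bases off. Capitals mark matches on either strand to 5 motifs, ETS (CCGGAAG), NRF1 (GCATGCGC), YY1 (AAGATGGC), the E-box (CACGTG) and the cyclic AMP response element (CRE, TGACGTCA). The windows are SMG9 at chr19:43754913-43755212 (minus strand), EIF4A3 at chr17:80147079-80147378 (minus strand), EXOSC6 at chr16:70251891-70252190 (minus strand), XRN1 at chr3:142447988-142448287 (minus strand) and XRN2 at chr20:21303081-21303380 (plus strand).
SMG9: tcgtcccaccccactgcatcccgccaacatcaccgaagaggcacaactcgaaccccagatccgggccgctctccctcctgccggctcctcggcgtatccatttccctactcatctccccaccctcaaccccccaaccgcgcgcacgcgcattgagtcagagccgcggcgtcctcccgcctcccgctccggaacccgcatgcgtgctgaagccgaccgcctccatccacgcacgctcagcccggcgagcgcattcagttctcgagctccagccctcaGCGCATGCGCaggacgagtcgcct
EIF4A3: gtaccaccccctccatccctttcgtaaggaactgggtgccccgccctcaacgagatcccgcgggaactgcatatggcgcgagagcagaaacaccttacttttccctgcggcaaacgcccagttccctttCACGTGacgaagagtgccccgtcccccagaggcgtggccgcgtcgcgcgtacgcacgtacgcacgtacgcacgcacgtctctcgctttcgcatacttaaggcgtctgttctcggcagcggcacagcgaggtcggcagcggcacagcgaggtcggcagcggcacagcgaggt
EXOSC6: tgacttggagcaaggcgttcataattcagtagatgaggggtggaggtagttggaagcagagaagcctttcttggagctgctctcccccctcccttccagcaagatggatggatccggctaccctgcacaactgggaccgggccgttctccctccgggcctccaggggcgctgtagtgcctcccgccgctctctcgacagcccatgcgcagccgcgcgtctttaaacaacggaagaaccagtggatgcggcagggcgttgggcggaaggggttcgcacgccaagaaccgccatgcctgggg
XRN1: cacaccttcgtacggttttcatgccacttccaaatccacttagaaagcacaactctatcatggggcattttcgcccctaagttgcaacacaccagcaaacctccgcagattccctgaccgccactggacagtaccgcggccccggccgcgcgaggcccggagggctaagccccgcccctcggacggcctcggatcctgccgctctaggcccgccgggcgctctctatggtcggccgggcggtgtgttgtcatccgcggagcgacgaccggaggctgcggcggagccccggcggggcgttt
XRN2: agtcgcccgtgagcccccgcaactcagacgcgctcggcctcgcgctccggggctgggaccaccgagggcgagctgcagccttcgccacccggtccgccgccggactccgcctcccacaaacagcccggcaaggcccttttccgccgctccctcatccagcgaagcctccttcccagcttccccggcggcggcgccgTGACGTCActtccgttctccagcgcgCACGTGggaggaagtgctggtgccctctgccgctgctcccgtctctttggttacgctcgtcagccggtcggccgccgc

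The EIF4A3 promoter held an E-box and that of XRN2 a CRE and an E-box, while the EXOSC6 and XRN1 windows held none of the 5 motifs. The SMG9 window held an overlapping pair of NRF1 matches, 1 on each strand, downstream of the start. The NRF1 letters were found in 5 of the 32 member promoters (15.6%) and in 3.3% of 27305 promoters. The CRE was found in 3 members (9.4%) against 2.0% of all promoters, YY1 in 3 (9.4%) against 3.0%, the E-box in 4 (12.5%) against 7.4%, and ETS in 5 (15.6%) against 10.7%. These counts include windows that start farther from the gene's start in the tables, up to 66924 bases for SMG6. Among the 20 within 100 bases, ETS, NRF1 and the E-box were each found in 3, and YY1 and the CRE each in 2. These matches are a description of the windows and were not tested.

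Total counts were 36792076 to 42842791 per library in HPB-ALL and 22884785 to 36098045 in KOPTK1. Within KOPTK1, libraries 1 to 3 held 33905452 to 36098045 and libraries 4 to 6 held 22884785 to 25938761. The 13 T-lineage markers found, CD3D and LCK among them, had a median of at least 1 RPKM in both lines, and their summed level was 1375 to 1431 RPKM in HPB-ALL and 2028 to 2485 RPKM in KOPTK1. Without TRBC2, a T-cell receptor constant gene at 189 to 222.8 RPKM and 862 to 1324 RPKM, the sums were 1159 to 1238 RPKM and 1156 to 1180 RPKM. Of the 12 other markers 4 were higher and 5 lower in KOPTK1 (edgeR adjusted p under 0.05), where 34.1% of all genes tested were higher and 31.3% lower. None of the 6 myeloid markers reached a median of 1 RPKM in either line. That level was reached by 2 of 6 B-lineage markers in HPB-ALL and 3 in KOPTK1, and in each line by 2 of 5 erythroid markers (HBA1 and HBA2) and 2 of 6 epithelial and stromal markers (VIM and COL1A1). HBA2, an alpha-globin gene with a near-identical copy, was at a median of 8.97 RPKM in HPB-ALL and 3.90 RPKM in KOPTK1. The part of other cell types in the results was not tested. SHQ1 itself ranged from 46.2 to 72.4 RPKM in HPB-ALL and from 39.6 to 46.9 RPKM in KOPTK1. KOPTK1 libraries 1, 2 and 3 stood apart from libraries 4, 5 and 6 of the same line. Their mean correlation with the HPB-ALL libraries, on log2(RPKM + 0.1) over the genes tested, was 0.911 to 0.917, against 0.822 to 0.826 for libraries 4 to 6. For 18 genes at 10 RPKM or more in each of libraries 4 to 6 and under 0.5 RPKM in every HPB-ALL library, the median level in libraries 1 to 3 was 55.6% to 59.6% of that in 4 to 6. HPB-ALL libraries 10 to 12 held 2.09% to 2.48% of it and libraries 7 to 9 at most 0.223%. CD79A, a B-cell receptor component, was at 24.3 to 24.9 RPKM in libraries 1 to 3, 5.93 to 7.20 RPKM in 4 to 6 and 40.1 to 46.6 RPKM in HPB-ALL. The cause was not tested, and counts and leading differences are also given without libraries 1 to 3.

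To ask how the decay machinery differed between the lines, the 37 genes were read from a fit to all 24247 genes tested (edgeR's quasi-likelihood test, Benjamini-Hochberg adjusted p under 0.05). Differences are log2 values, KOPTK1 minus HPB-ALL, with their standard error (SE). Levels are RPKM after TMM scaling, which divides by exon length, given as the lowest, median and highest of 6 libraries. Gene positions are those of the tables (GRCh38). The p-values measure only the spread among these libraries. In bulk RNA, fewer cells with a transcript and less of it per cell cannot be told apart.

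Of the 37 genes, 8 were higher in KOPTK1, 16 were lower and 13 did not pass the threshold. Of all genes tested, 34.1% were higher and 31.3% lower. The balance moved with the filter and the scaling. It was 6 higher and 22 lower with no filter on low values, and 7 and 20 when centred on the median of all genes. Among genes of at least 10 RPKM, a fit that held 36 of the members, it was 11 and 15. Over all genes, in either direction, 19484 passed with no filter and 15927 of 24247 when centred. Among those of at least 10 RPKM, 7196 of 9293 (77.4%) passed. None of the 37 was 2-fold apart, against 13.3% of all genes, and none was 1.5-fold apart, against 28%. Among genes with a mean of at least 10 RPKM, 6.03% were 2-fold and 16.7% were 1.5-fold apart. The median size of the difference was 0.16 over the members, 0.33 over all genes tested and 0.25 over genes with at least 10 RPKM. The libraries of the lines did not overlap for 16 of the 37 genes and for 45.3% of all genes.

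Without KOPTK1 libraries 1 to 3, 8 members were higher and 21 lower, where 35.2% of all genes were higher and 34.9% lower. MAGOHB was then past 1.5-fold, as were 38.2% of all genes. The 5 genes added to the lower group were SMG5, SMG6, EXOSC4, EXOSC5 and CNOT1.

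**Figure D1:**
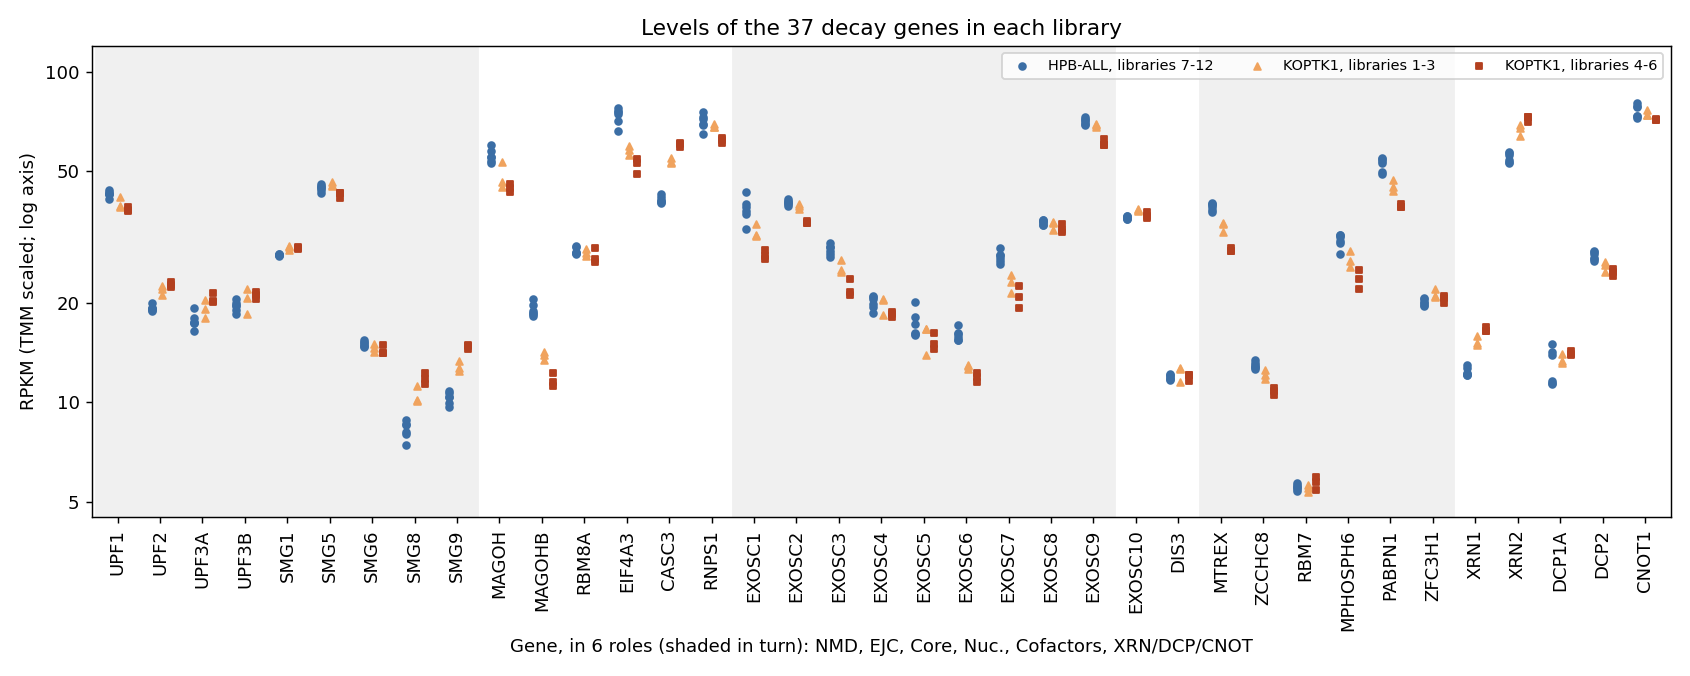
RPKM on a log axis of the 37 genes in each of 12 libraries, in 6 roles from left to right. RBM7 lay lowest, near 5.5 RPKM in both lines, and CNOT1, EIF4A3, RNPS1 and EXOSC9 were among the highest in HPB-ALL.

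**Figure D2:**
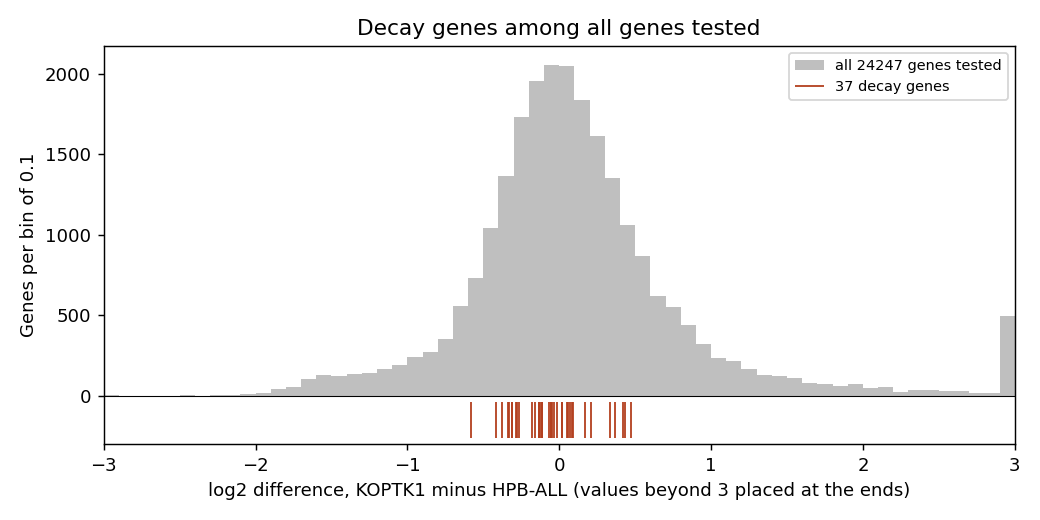
Histogram of the log2 difference between the lines for 24247 genes, with 1 tick per decay gene below. The members lay between -0.58 (MAGOHB) and 0.47 (CASC3).

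Among the 9 NMD factors, 5 were higher in KOPTK1, 1 was lower and 3 did not pass, against 34.1% higher and 31.3% lower over all genes. The largest differences were those of SMG8 and SMG9, which bind SMG1 and restrain its kinase activity. SMG8 (chr17:59209400-59215247) was at 7.43, 8.30 and 8.86 RPKM in HPB-ALL and at 10.1, 11.3 and 12.3 RPKM in KOPTK1. SMG9 (chr19:43727992-43754990) was at 9.65, 10.3 and 10.8 RPKM in HPB-ALL and at 12.4, 13.9 and 14.9 RPKM in KOPTK1. For both genes every KOPTK1 library lay above every HPB-ALL library. The difference was 0.43 for SMG8 (SE 0.058, edgeR adjusted p = 2.7e-05) and 0.42 for SMG9 (SE 0.051, edgeR adjusted p = 9.5e-06). Without libraries 1 to 3 both were at 0.50.

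SMG1 itself was at 27.8 to 28.2 RPKM in HPB-ALL and 28.9 to 29.6 RPKM in KOPTK1, a narrow gap of 0.069 (SE 0.020, edgeR adjusted p = 7.6e-03) that was -0.0019 with no filter on low values. SMG1 has near-identical pseudogene copies, and its counts carried a fraction in 10 of 12 libraries, so its level is uncertain. UPF2, the bridge between UPF1 and UPF3 proteins, was at 18.9, 19.2 and 19.97 RPKM in HPB-ALL and at 21.1, 22.4 and 23.2 RPKM in KOPTK1, without overlap (difference 0.21, SE 0.028, edgeR adjusted p = 2.4e-05). UPF1 ran the other way, with 41.1, 42.7 and 44.0 RPKM in HPB-ALL and 37.9, 39.0 and 41.8 RPKM in KOPTK1, and the ranges overlapped (difference -0.12, SE 0.029, edgeR adjusted p = 1.6e-03).

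UPF3A and UPF3B are paralogs that link UPF2 to the exon junction complex. UPF3A was higher in KOPTK1 by 0.17 (SE 0.048, edgeR adjusted p = 6.7e-03), a call lost with no filter on low values (0.099, edgeR adjusted p = 0.15), and UPF3B differed by 0.083 (SE 0.044, edgeR adjusted p = 0.11). UPF3B made up 50.9% to 54.3% of the summed UPF3 level in HPB-ALL and 49.5% to 51.9% in KOPTK1. That share did not pass a 2-sided exact permutation test over 6 against 6 libraries (p = 0.0519, the same after adjustment over the 2 paralog shares tested). SMG5 and the endonuclease SMG6 did not pass, with differences of -0.015 and -0.055.

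The exon junction complex held both ends of the range. CASC3 (chr17:40140323-40172183), its cytoplasmic core component, was at 40.0, 40.9 and 42.6 RPKM in HPB-ALL and at 53.0, 57.3 and 60.9 RPKM in KOPTK1, with no overlap. Its difference of 0.47 (SE 0.039, edgeR adjusted p = 3.1e-07) was the highest of the 37 and rose to 0.54 without libraries 1 to 3. Those 3 libraries, at 53.0 to 55.1 RPKM, lay between HPB-ALL and libraries 4 to 6, which were at 59.5 to 60.9 RPKM.

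Of the other 5 components, 4 were lower in KOPTK1, where 31.3% of all genes were, and RBM8A did not pass. EIF4A3 (chr17:80135214-80147183), the RNA-clamping helicase, was at 66.1, 75.3 and 77.9 RPKM in HPB-ALL and at 49.1, 55.3 and 59.8 RPKM in KOPTK1 (difference -0.42, SE 0.051, edgeR adjusted p = 9.7e-06). MAGOHB (chr12:10604190-10613623) was at 18.2, 18.8 and 20.5 RPKM in HPB-ALL and at 11.2, 12.8 and 14.2 RPKM in KOPTK1 (difference -0.58, SE 0.060, edgeR adjusted p = 2.4e-06). Neither gene's libraries overlapped between the lines. Without libraries 1 to 3 the differences were -0.52 for EIF4A3 and -0.73 for MAGOHB. RBM8A, the partner of MAGOH, was at 28.1 to 29.7 RPKM in HPB-ALL and 26.6 to 29.3 RPKM in KOPTK1 and did not pass (difference -0.033, SE 0.031, edgeR adjusted p = 0.36). RNPS1, a peripheral component, was lower by the fit (-0.11, SE 0.044, edgeR adjusted p = 0.036) with overlapping ranges, and lost its call on leaving out any of 5 single libraries.

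MAGOH and MAGOHB encode nearly the same protein, and reads that fit both may have been split between them. MAGOH was at 52.9, 55.2 and 60.3 RPKM in HPB-ALL and at 43.4, 45.3 and 53.5 RPKM in KOPTK1 (difference -0.26, SE 0.053, edgeR adjusted p = 5.8e-04). MAGOHB took 23.5%, 25.6% and 27.1% of their sum in HPB-ALL and 20.01%, 21.1% and 23.6% in KOPTK1. The share was lower in KOPTK1 by a 2-sided exact permutation test (p = 0.00433, 0.00866 after adjustment over the 2 shares, n = 6 and 6), although 1 KOPTK1 library lay above the lowest HPB-ALL library. The test takes the 6 libraries of a line as exchangeable, though they include both shRNAs. Within HPB-ALL the share was 26.0% to 27.1% in libraries 7 to 9 and 23.5% to 25.2% in libraries 10 to 12. Without libraries 1 to 3 the shares of the lines did not overlap (20.01% to 22.02% in KOPTK1). The exact p was then 0.0238, the smallest that 6 against 3 libraries can give.

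**Figure D3:**
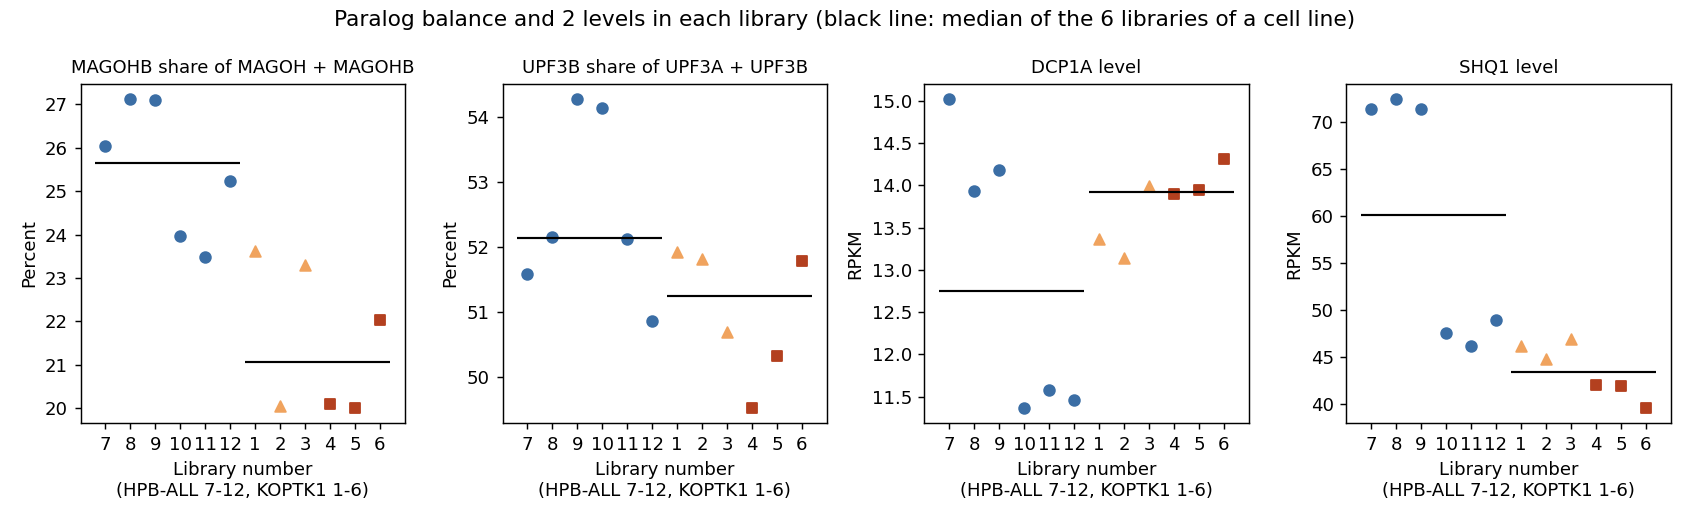
Share of MAGOHB in MAGOH plus MAGOHB, share of UPF3B in UPF3A plus UPF3B (percent), and RPKM of DCP1A and of SHQ1, for each library by number, on axes that do not start at 0. Black lines are the medians of the 6 libraries of a line; MAGOHB took a median of 25.6% in HPB-ALL and 21.1% in KOPTK1.

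No exosome core subunit was higher in KOPTK1, where 34.1% of all genes were. Of the 9, 6 were lower, against 31.3% of all genes, and EXOSC4, EXOSC5 and EXOSC8 did not pass. All 9 differences were below 0, from -0.38 to -0.045 in this fit and from -0.48 to -0.011 over it and the 6 alternatives run (other filters, scalings and tools, and leaving out KOPTK1 libraries 1 to 3). Without libraries 1 to 3, 8 of the 9 were lower, against 34.9% of all genes, and EXOSC8 was at -0.080 (edgeR adjusted p = 0.070).

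EXOSC1, EXOSC2 and EXOSC3 form the RNA-binding cap. EXOSC3 was at 27.6, 29.1 and 30.4 RPKM in HPB-ALL and at 21.2, 24.2 and 27.0 RPKM in KOPTK1, and EXOSC1 was at 33.5, 38.5 and 43.2 RPKM against 27.2, 30.5 and 34.6 RPKM. EXOSC3 did not overlap between the lines and EXOSC1 did. The differences were -0.28 for EXOSC3 (SE 0.056, edgeR adjusted p = 6.3e-04), -0.34 for EXOSC1 (SE 0.071, edgeR adjusted p = 8.4e-04) and -0.12 for EXOSC2 (SE 0.039, edgeR adjusted p = 0.017).

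EXOSC4 to EXOSC9 form the ring. EXOSC6 was at 15.4, 15.9 and 17.1 RPKM in HPB-ALL and at 11.5, 12.4 and 12.97 RPKM in KOPTK1 (difference -0.38, SE 0.038, edgeR adjusted p = 1.7e-06). EXOSC7 was at 26.3, 27.6 and 29.4 RPKM and at 19.3, 21.9 and 24.2 RPKM (difference -0.33, SE 0.056, edgeR adjusted p = 1.6e-04). Both were lower in every KOPTK1 library. EXOSC9 was also lower, with overlapping ranges (difference -0.13, SE 0.042, edgeR adjusted p = 0.014). EXOSC5 differed by -0.16 (SE 0.071, edgeR adjusted p = 0.065) and passed on leaving out any of 5 single libraries.

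The order of core levels was nearly the same in both lines. EXOSC9 led, with a median of 71.2 RPKM in HPB-ALL and 65.3 RPKM in KOPTK1, followed by EXOSC2 at 40.3 and 36.98 RPKM. EXOSC6 was lowest at 15.9 and 12.4 RPKM. EXOSC1 and EXOSC8 came next, EXOSC1 ahead in HPB-ALL and EXOSC8 ahead in KOPTK1, and their ranges overlapped in each line. The levels of EXOSC2 and its next neighbour, of EXOSC3 and EXOSC7, also overlapped in both lines. EXOSC4, EXOSC5 and EXOSC6 followed each other in that order in both lines, with neighbouring ranges that overlapped in HPB-ALL and did not in KOPTK1.

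The nucleases did not pass. EXOSC10 was at 35.9, 36.2 and 36.7 RPKM in HPB-ALL and at 36.2, 37.8 and 38.4 RPKM in KOPTK1 (difference 0.048, SE 0.025, edgeR adjusted p = 0.10). DIS3 was at 11.7, 11.9 and 12.2 RPKM in HPB-ALL and at 11.5, 12.1 and 12.7 RPKM in KOPTK1 (difference 0.021, SE 0.030, edgeR adjusted p = 0.56). A p that misses the threshold does not show that the levels were equal.

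Of the 6 nuclear cofactors, 4 were lower in KOPTK1 and none was higher, against 31.3% lower and 34.1% higher over all genes. MTREX (chr5:55307760-55425581), the helicase that feeds RNA into the exosome, was at 37.8, 39.2 and 40.0 RPKM in HPB-ALL and at 28.6, 31.1 and 34.8 RPKM in KOPTK1, with no overlap (difference -0.31, SE 0.052, edgeR adjusted p = 1.5e-04). Its difference was -0.45 without libraries 1 to 3. MTREX joins ZCCHC8 and RBM7 in the nuclear exosome targeting complex. ZCCHC8 was lower by the fit (-0.18, SE 0.042, edgeR adjusted p = 2.2e-03), and RBM7, at 5.37 to 5.68 RPKM in HPB-ALL and 5.35 to 5.95 RPKM in KOPTK1, did not pass.

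PABPN1 and ZFC3H1 belong with MTREX to the complex that targets polyadenylated nuclear RNA. PABPN1 was at 49.1, 53.5 and 54.9 RPKM in HPB-ALL and at 39.0, 41.8 and 47.2 RPKM in KOPTK1 (difference -0.31, SE 0.051, edgeR adjusted p = 1.3e-04). It overlaps an annotated read-through transcript with its neighbour, so its count is uncertain. ZFC3H1 was at 19.5 to 20.7 RPKM in HPB-ALL and 20.02 to 22.0 RPKM in KOPTK1 (difference 0.058, edgeR adjusted p = 0.078). MPHOSPH6, at 28.03, 31.2 and 32.0 RPKM against 22.1, 25.4 and 28.8 RPKM, was lower in KOPTK1 (difference -0.28, SE 0.060, edgeR adjusted p = 9.1e-04).

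The 5′ to 3′ exonucleases were both higher in KOPTK1. XRN1 (chr3:142306607-142448062), which acts in the cytoplasm, was at 12.05, 12.2 and 12.99 RPKM in HPB-ALL and at 14.9, 16.2 and 16.9 RPKM in KOPTK1 (difference 0.37, SE 0.036, edgeR adjusted p = 1.3e-06). XRN2 (chr20:21303304-21389827), its nuclear counterpart, was at 53.2, 55.1 and 57.1 RPKM in HPB-ALL and at 64.2, 69.7 and 73.0 RPKM in KOPTK1 (difference 0.33, SE 0.035, edgeR adjusted p = 2.6e-06). Neither gene's libraries overlapped, and without libraries 1 to 3 the differences were 0.41 and 0.37.

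DCP2, the decapping enzyme, was at 26.7, 27.7 and 28.7 RPKM in HPB-ALL and at 24.2, 25.1 and 26.6 RPKM in KOPTK1, without overlap (difference -0.13, SE 0.030, edgeR adjusted p = 1.4e-03). Its activator DCP1A did not pass (difference 0.092, SE 0.069, edgeR adjusted p = 0.25). DCP1A had the widest spread of the 37 genes within HPB-ALL, 1.32-fold from the lowest to the highest library, against a median of 1.08-fold over the members. Libraries 7 to 9 held 13.9 to 15.02 RPKM and libraries 10 to 12 held 11.37 to 11.6 RPKM, and SHQ1 was at 71.3 to 72.4 RPKM and 46.2 to 48.9 RPKM in the same libraries. This split was not particular to DCP1A. Among other members, CNOT1 (78.1 to 80.6 against 72.7 to 73.5 RPKM), XRN2, RNPS1 and EXOSC1 were also higher in libraries 7 to 9 without overlap. So were MAGOHB, MTREX and, by a narrow gap, SMG1 (27.92 to 28.2 against 27.82 to 27.88 RPKM). UPF3B (18.5 to 19.5 against 19.65 to 20.6 RPKM) and MAGOH were lower there. The share of all genes that split in this way is not given here, so the split is not a result about the members. The cause was not tested. CNOT1, the scaffold of the CCR4-NOT deadenylase, was at 72.7, 75.8 and 80.6 RPKM in HPB-ALL and at 71.4, 73.2 and 77.0 RPKM in KOPTK1 (difference -0.054, edgeR adjusted p = 0.17).

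**Figure D4:**
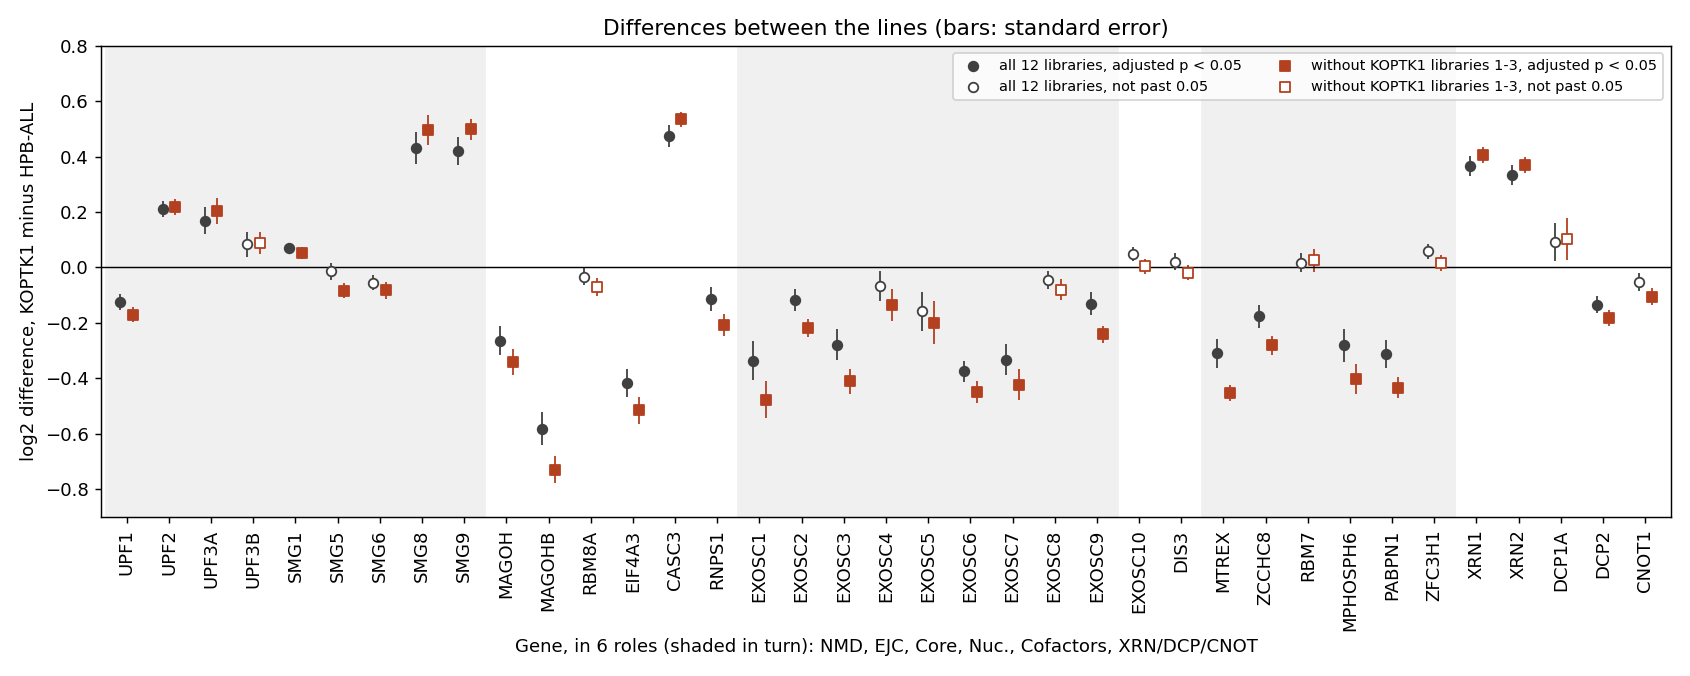
Log2 difference between the lines with its standard error for the 37 genes, with all 12 libraries (circles) and without KOPTK1 libraries 1 to 3 (squares); filled symbols have an edgeR adjusted p under 0.05. SMG8, SMG9, CASC3, XRN1 and XRN2 lay above 0.3 and the exosome core lay below 0.

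**Figure D5:**
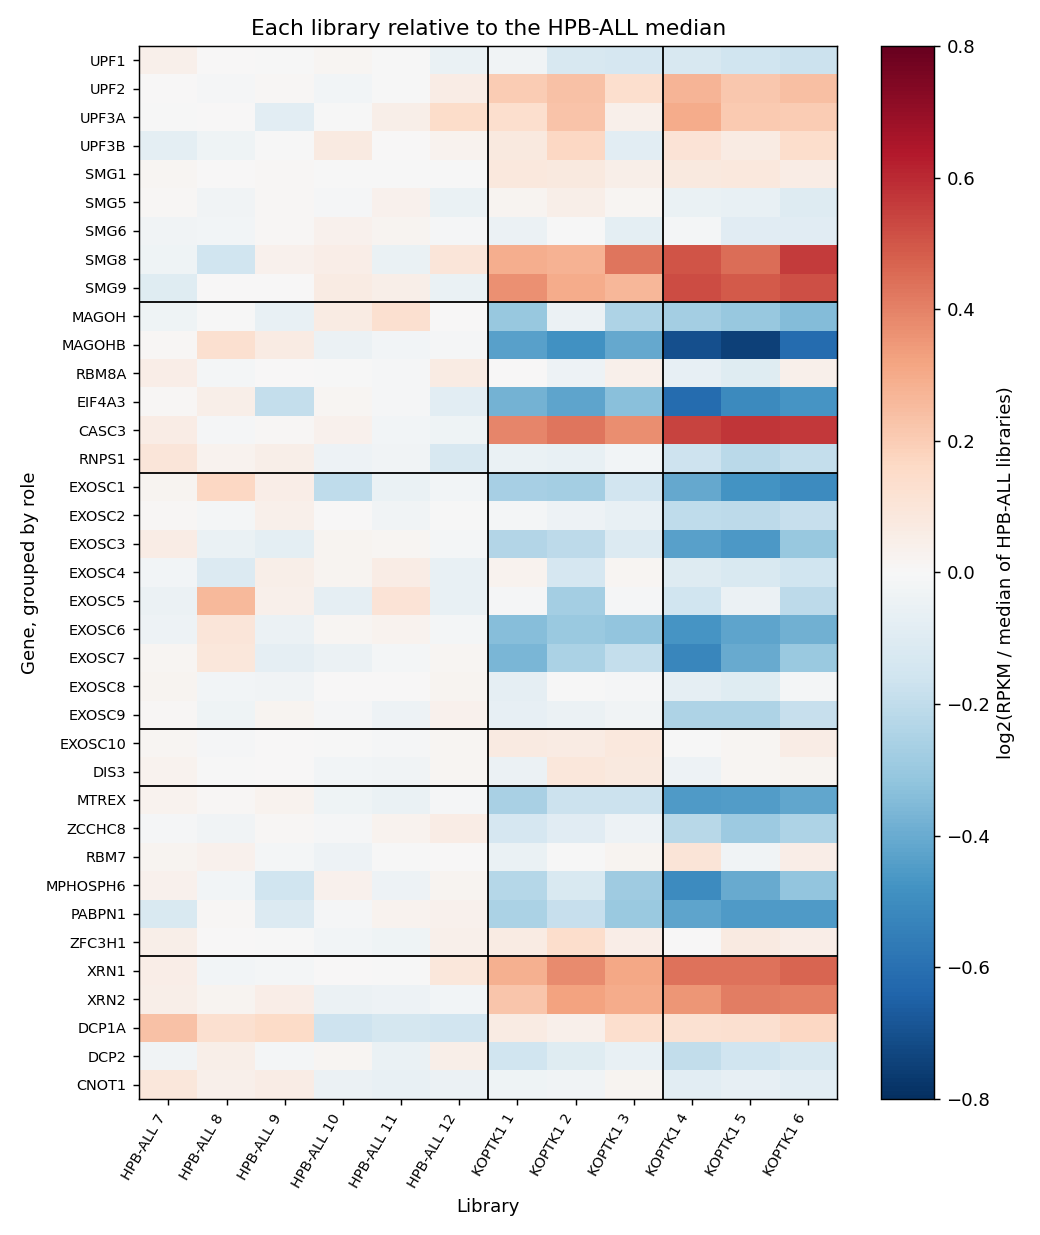
Log2 of RPKM over the HPB-ALL median for the 37 genes (rows, by role) in 12 libraries (columns). For CASC3, MAGOHB, MTREX and XRN1, KOPTK1 libraries 1 to 3 were closer to 0 than libraries 4 to 6.

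Of 54 other genes of the same pathways, 53 were tested. In KOPTK1 16 were higher, 26 were lower and 11 did not pass, against 34.1% higher and 31.3% lower over all genes. The median difference was -0.075, against 0.033 over all genes and -0.0084 over those of at least 10 RPKM. Past 1.5-fold was 1 of the 53, where 28% of all genes were. Without KOPTK1 libraries 1 to 3, 15 were higher and 29 lower, against 35.2% higher and 34.9% lower over all genes. In that fit 5 of the 53 were past 1.5-fold, against 38.2% of all genes. The 3 highest differences were those of TOB1, an adaptor that recruits deadenylases (1.10, SE 0.094, edgeR adjusted p = 4.0e-07), and of CNOT4 (0.53) and CNOT6L (0.52), an E3 ligase and a nuclease linked to CCR4-NOT. The 3 lowest differences were those of PELO, a ribosome rescue factor (-0.50, and -0.78 without libraries 1 to 3), SKIC8, of the SKI complex that feeds the cytoplasmic exosome (-0.44), and PAN2, a deadenylase (-0.42). The PELO counts carried a fraction in 11 of 12 libraries, so its level is uncertain. TOB1 was at 8.31, 8.66 and 8.98 RPKM in HPB-ALL and at 14.6, 19.1 and 21.5 RPKM in KOPTK1. It was the 1 gene of the 53 that was 2-fold apart, against 13.3% of all genes.

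A list of 30 genes with transcripts known to be NMD targets or to retain introns had 29 tested. In KOPTK1 18 were higher, 6 were lower and 5 did not pass, against 34.1% higher and 31.3% lower over all genes. The median difference was 0.21, against 0.033 over all genes. Past 1.5-fold were 8 of the 29, where 28% of all genes were. Without libraries 1 to 3, 18 were higher and 7 lower, against 35.2% higher and 34.9% lower over all genes. In that fit 14 of the 29 were past 1.5-fold, as were 38.2% of all genes. The 3 highest differences were those of the stress genes GADD45B (2.26, SE 0.13, edgeR adjusted p = 2.7e-08), ATF3 (1.604) and GADD45A (1.32). GADD45B was at 6.20, 7.02 and 9.45 RPKM in HPB-ALL and at 28.6, 35.1 and 42.7 RPKM in KOPTK1. The 3 lowest differences were those of ASNS, asparagine synthetase (-0.65), CARS1, a cysteinyl-tRNA synthetase (-0.55), and FBXO9 (-0.46), an F-box protein. Without libraries 1 to 3, ASNS was at -1.29. Its levels were low, at 2.89, 3.23 and 3.49 RPKM in HPB-ALL and at 1.21, 2.01 and 2.86 RPKM in KOPTK1. The ASNS counts carried a fraction in 11 of 12 libraries, so its level is uncertain. These levels are sums over all transcripts of a gene, and NMD-sensitive isoforms were not measured separately.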

How the data were processed

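RNA-Seq counts from 12 libraries of 2 T-ALL lines were analysed. Estimated counts per gene, with exon length, were deposited by the authors in 1 table per line without normalization. Per the submitters' notes the tools were Trimmomatic 0.36, STAR 2.5.4b, Picard 2.18.7, featureCounts 1.6.2 and edgeR 3.22.3 on hg38. Of the nonzero counts 24.86% carried a fraction, so counts were rounded for testing. Use of strand in counting is not given in the sources used here, so overlapping genes cannot be told apart.

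Columns are headed by numbers alone. They were assigned to a line, since each sample's label names its table, and to no shRNA. The planned comparisons of shRNAs and shRNA as a covariate were dropped for that reason. The authors' fold changes, F statistics, p-values and FDR were not used.

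Genes with a mean of at least 1 RPKM in either line were tested with edgeR 4.0.16 (R 4.3.3, TMM, quasi-likelihood), after tests on simulated data. DESeq2 1.42.0, other filters and scalings, and fits without libraries were alternatives. All members were named, with the 3 largest changes each way from 2 wider lists. Members and lists were chosen with earlier results of these data known.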

Additional observations from a re-analysis of the deposited data

Results flagged for a closer look

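In each line the highest and lowest of the 6 libraries were set against the others for the 37 genes, 74 groups in all. The gap to the nearest library exceeded Dixon's 95% critical value in 2 groups, where chance gives about 3.7 if the 6 libraries are alike. They include both shRNAs, and KOPTK1 libraries 1 to 3 stood apart. Such a split widens the range and can hide a single outlier, so the 2 counts cannot be compared closely. UPF1 in KOPTK1 library 1 was at 41.8 RPKM, with the next library at 39.2 RPKM. MAGOH in KOPTK1 library 2 was at 53.5 RPKM, with the next library at 46.6 RPKM. Both libraries belong to the 3 KOPTK1 libraries that stood apart, and the cause was not tested.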

How the results depend on the processing

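Over 6 alternatives, 186 of 221 values for single members kept their direction and side of the threshold, 20 passed it, 3 no longer did and 12 changed sign. Leaving out KOPTK1 libraries 1 to 3, DESeq2, scaling by library totals and leaving out single libraries were chosen after seeing the data. The median difference over the members was -0.055, -0.13 with no filter on low values and -0.11 without KOPTK1 libraries 1 to 3. SMG1, called higher, was at -0.0019 with no filter. The other sign changes were of genes not past the threshold: EXOSC10 (-0.023), DIS3 (-0.051), RBM7 (-0.055) and ZFC3H1 (-0.013) with no filter, DIS3 (-0.012) and RBM7 (-0.016) when centred on the median, DIS3 (-0.0019) and RBM7 (-0.0079) with DESeq2, SMG5 (0.019) and RBM8A (0.0004) among genes of at least 10 RPKM, and DIS3 (-0.018) without libraries 1 to 3. The causes were not tested. RNPS1 lost its call among genes of at least 10 RPKM, UPF3A with no filter and SMG1 when centred.

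Leaving out 1 library at a time gave 8 to 9 members higher and 15 to 18 lower. With all 12 libraries 8 were higher and 16 lower, where 34.1% of all genes were higher and 31.3% lower. RNPS1 lost its call without HPB-ALL library 7 or 8 or KOPTK1 library 4, 5 or 6, with adjusted p from 0.054 to 0.083. EXOSC5 passed without HPB-ALL library 7, 10 or 12 or KOPTK1 library 1 or 3, SMG6 without HPB-ALL library 7, UPF3B and CNOT1 without KOPTK1 library 3, and ZFC3H1 without KOPTK1 library 4. No paired analysis was possible because the column numbers match no replicate label. The pseudocount of 1, DESeq2, leave-one-out and replicate block planned for the comparisons of shRNAs were not run for the same reason.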
